A study of Homo sapiens with 4 samples.

Results

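The respiratory chain and ATP synthase of the mitochondrion are built from subunits encoded in 2 genomes, and the genes of both were followed here in HaCaT keratinocytes with and without overexpression of TCN1. Members were all rows whose symbol fits a naming rule for subunits of complex I, II, III, IV or V (ATP synthase), with pseudogenes left out. Some subunits fall outside the rule, so the sets by complex are not complete. The rule matched 97 of 29209 rows. Of these, 94 are subunit genes, 13 in mitochondrial DNA and 81 in the nucleus, and the others are the noncoding rows UQCRB-AS1 and UQCRFS1-DT and the readthrough row ATP5MF-PTCD1. The 81 nuclear genes comprise 35 of complex I, 4 of complex II, 10 of complex III, 14 of complex IV and 18 of complex V, with NDUFA4 counted in complex IV, where its protein sits. The rule did not use any measured value, but the members were proposed with earlier results of these data known.

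HaCaT is a spontaneously immortalised human keratinocyte line. Cells of this line were given lentivirus (Genechem) to make a line that overexpresses TCN1, which encodes transcobalamin 1 (haptocorrin), a secreted vitamin B12-binding protein, and were compared with a negative control line, here NC. Cells were lysed in Trizol after 48 h and polyA RNA was sequenced from 2 NC and 2 TCN1 libraries. The labels do not say which construct the NC cells carried, whether a line is 1 clone, or whether replicates are separate cultures. The p-values therefore speak only of the spread seen among these libraries, and that spread may be technical. TCN1 itself stood at 1.67 and 0.978 FPKM in the NC libraries and at 68.3 and 56.6 FPKM in the TCN1 libraries. FPKM counts fragments relative to gene length and to the total of the library, and the totals ran from 11593377 to 19973550 counts. All 8 keratinocyte markers were present, with KRT14 at 3097 FPKM or more in each library. Among the rows were 3 of 6 fibroblast, 4 of 5 melanocyte, 4 of 5 leukocyte and 3 of 4 endothelial markers. Summed by cell type, they did not pass 3.05 FPKM in any library. The highest of each list were COL1A1 (1.61 to 2.12 FPKM), MITF (1.24 to 1.58), CD14 (2.01 to 2.80) and VWF (0.752 to 1.28). DCN, DCT, PTPRC and LYZ were at or near 0.

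Complexes I and II pass electrons from NADH and succinate to ubiquinone, complex III passes them on to cytochrome c, and complex IV hands them to oxygen. Complexes I, III and IV pump protons across the inner membrane, and complex V lets the protons back to make ATP. The genes in mitochondrial DNA encode membrane-embedded core subunits and are read from long common transcripts that are cut into single RNAs, whereas each nuclear subunit has a gene and promoter of its own and complex II is wholly nuclear. In a proliferating keratinocyte culture the chain also serves biosynthesis and the renewal of redox carriers.

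No subunit gene of either genome passed the test. Of the 94 subunit genes, 87 had enough counts to be tested, and edgeR called 0 of them at an adjusted p of 0.05, against 0.496% of all 15113 genes tested (0.285% higher and 0.212% lower in TCN1). The smallest adjusted p was 0.265 in edgeR, for MT-ATP6. An unadjusted p under 0.05 was found for 5 of the 87, namely MT-ATP6, MT-CO3, MT-CO2, NDUFA1 and COX6B2, against 12.8% of all genes tested. DESeq2 also called 0 of the 87, against 111 genes higher and 115 lower of 15113. Limma on log2(FPKM + 0.5) called 0 of 78 subunits, but it called only 1 gene higher and 0 lower of 11470. With replicate number as a block, a pairing that could not be shown, 14 of the 87 were called, against 1216 genes higher and 1655 lower of 15113.

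What the values show is a small difference in level between the genomes, in 2 libraries against 2. The 12 tested mitochondrially encoded genes had a median log2 fold change (TCN1 over NC) of 0.17, with 11 above 0, and the 75 tested nuclear genes had a median of 0.03, with 45 above 0, beside 0.002 and 50.3% above 0 over all genes tested. The mitochondrially encoded genes are short, with a median length of 784 bp, and the 1582 tested genes under 1500 bp had a median of 0.09 with 59.1% above 0, against -0.004 and 49.3% for longer genes. The part of length in the difference between the genomes was not tested. FPKM ranges of the groups did not overlap, with TCN1 higher, in 9 of the 12 mitochondrially encoded and 16 of the 75 nuclear genes, against 21.7% of all genes tested. They did not overlap with TCN1 lower in 0 of the 12 and 2 of the 75, against 21.0%. Genes measured in the same libraries are not separate observations, least of all the 12, which are read from common transcripts. These counts are a description. The 95% interval of the log2 fold change lay within 0.5 of 0 for 58 of the 87 and within 1 of 0 for 74. Over all 15113 genes tested it did so for 6503 and 11158.

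Summed over the 13 genes, the mitochondrially encoded subunits reached 52576 and 49688 FPKM in NC and 60322 and 55561 FPKM in TCN1. Both TCN1 libraries lay above both NC libraries, with a ratio of means of 1.13 (exact two-sided permutation test, p = 0.333, the smallest that 2 libraries against 2 allow). Summed over the 81 nuclear genes, the levels were 2962 and 2722 FPKM in NC and 2969 and 2865 FPKM in TCN1, with overlapping groups and a ratio of 1.03 (exact two-sided permutation test, p = 0.667). The mitochondrially encoded sum was 17.8 and 18.3 times the nuclear sum in NC and 20.3 and 19.4 times in TCN1 (exact two-sided permutation test, p = 0.333). In bulk RNA such a difference in level cannot be told apart from a difference in the RNA content of the cells or in how many cells carry it.

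**Figure D1:**
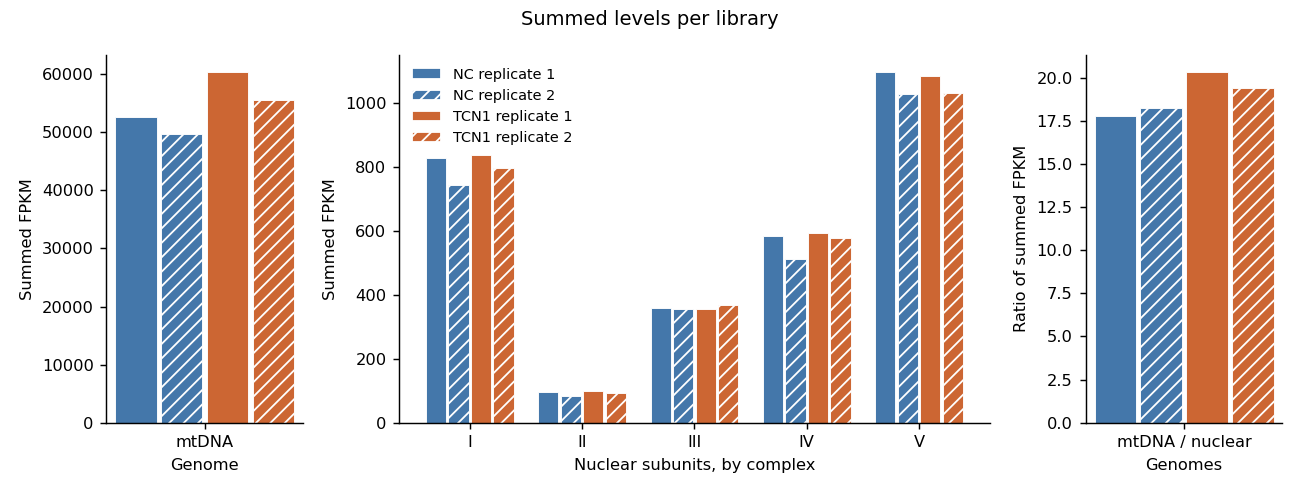
Summed FPKM per library of the mitochondrially encoded subunits (left), of the nuclear subunits by complex (middle) and the ratio of the mitochondrially encoded to the nuclear sum (right), each bar 1 library. The TCN1 bars stand above both NC bars at left and right, while in the middle panel the groups overlap in every complex.

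The 7 ND genes encode the membrane-arm core of complex I. MT-ND4, an antiporter-like proton pump subunit and the most abundant of them, stood at 5039 and 5296 FPKM in NC and at 5775 and 5509 FPKM in TCN1. The groups were separate, and the log2 fold change was 0.12 ± 0.08 (SE). MT-ND1, which lines the ubiquinone channel, was at 1127 and 1122 FPKM in NC and at 1301 and 1236 FPKM in TCN1, again separate, with a log2 fold change of 0.17 ± 0.08 (SE, edgeR adjusted p = 0.409). MT-ND6, the only member read from the other strand of the mitochondrial DNA, was at 1172 and 1034 FPKM in NC and at 1212 and 1278 FPKM in TCN1. The library kit does not mark strand, so reads of MT-ND6 cannot be told from reads of the opposite strand.

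The other pump subunits, MT-ND2 and MT-ND5, had the log2 fold changes nearest to 0 in this genome. MT-ND2 stood at 1796 and 1877 FPKM in NC and at 1917 and 1819 FPKM in TCN1, a log2 fold change of 0.02 ± 0.08 (SE). MT-ND5 stood at 1861 and 1611 FPKM in NC and at 1645 and 1731 FPKM in TCN1, and its log2 fold change of -0.04 ± 0.09 (SE) was the only negative one. In both genes the groups overlapped, and the 95% intervals ran from -0.16 to 0.20 and from -0.25 to 0.16.

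The short genes MT-ND3 and MT-ND4L had the largest log2 fold changes of the mitochondrially encoded genes, and both rest on 1 library. MT-ND3 was at 1991 and 1335 FPKM in NC and at 2159 and 1970 FPKM in TCN1. MT-ND4L was at 785 and 487 FPKM in NC and at 870 and 839 FPKM in TCN1. In both, NC replicate 2 stood below the other 3 libraries, and the log2 fold changes were 0.31 ± 0.15 and 0.42 ± 0.19 (SE). Without NC replicate 2 they were 0.05 and 0.12, with edgeR adjusted p-values of 0.947 and 0.845. Without NC replicate 1, which leaves only the low library, they were 0.62 and 0.80, with edgeR adjusted p-values of 0.00165 and 2.07e-05.

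MT-CYB, the cytochrome b core of complex III and its only mitochondrially encoded subunit, was at 3592 and 3744 FPKM in NC and at 4065 and 3867 FPKM in TCN1. The groups were separate by a narrow margin, with a log2 fold change of 0.11 ± 0.08 (SE).

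The genes of the complex IV core were the most abundant members of the chain per length, and in all 3 both TCN1 libraries lay above both NC libraries. MT-CO1, which holds the site where oxygen is reduced, stood at 11032 and 10695 FPKM in NC and at 12404 and 11948 FPKM in TCN1, a log2 fold change of 0.16 ± 0.07 (SE). MT-CO2, which takes electrons from cytochrome c, stood at 11992 and 10652 FPKM in NC and at 14627 and 12032 FPKM in TCN1, where the margin between the groups was small beside the gap between the TCN1 libraries. MT-CO3 stood at 8532 and 8151 FPKM in NC and at 9693 and 9262 FPKM in TCN1. The log2 fold changes of MT-CO2 and MT-CO3 were 0.23 ± 0.10 and 0.18 ± 0.08 (SE), with edgeR adjusted p-values of 0.38 and 0.361.

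MT-ATP6, the proton channel subunit of complex V, stood at 3655 and 3684 FPKM in NC and at 4652 and 4067 FPKM in TCN1. The NC libraries were close together and both TCN1 libraries lay above them, and the log2 fold change was 0.24 ± 0.09 (SE, edgeR adjusted p = 0.265). Across the alternatives it ran from 0.15 to 0.32, with adjusted p-values from 0.242 to 0.716. A nuclear copy of this gene, MTATP6P1, had counts of 4642 and 2099 in NC and of 4992 and 4176 in TCN1, beside 49712, 29082, 52549 and 40866 counts on MT-ATP6. The counts on all 74 nuclear pseudogene copies of mitochondrial genes, which are separate rows, equalled 0.739% and 0.627% of the mitochondrially encoded counts in NC. In TCN1 they equalled 0.777% and 0.832%. Their part in the MT-ATP6 difference was not tested.

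**Figure D2:**
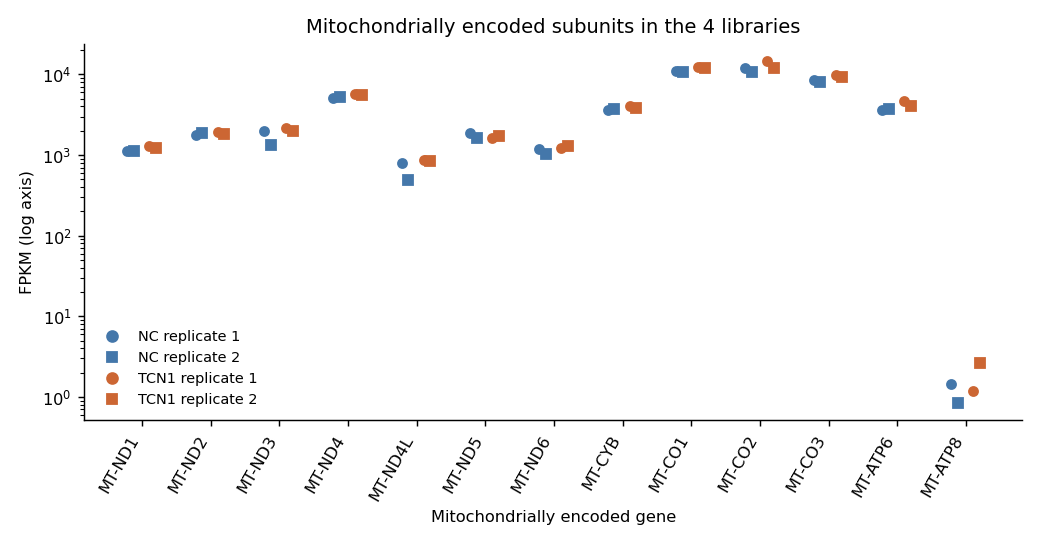
FPKM (log axis) of the 13 mitochondrially encoded subunit genes in the 4 libraries, each point 1 library. Of these genes, 12 lie between 487 and 14627 FPKM, MT-ND3 and MT-ND4L show the low NC replicate 2, and MT-ATP8 lies at 0.833 to 2.62 FPKM.

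MT-ATP8, a small membrane subunit of complex V, was nearly uncounted beside MT-ATP6, although both coding regions lie on the same RNA. The NC libraries gave it 6 and 2 counts and the TCN1 libraries 4 and 8, too few for the test. Its 207 bases occupy positions 8366 to 8572 of chromosome M (GRCh38, plus strand), and the last 46 are also the first bases of MT-ATP6. The sequence is shown because the overlap is visible in it. It is taken from GENCODE 29, and the capitals mark the bases shared by both genes.
MT-ATP8: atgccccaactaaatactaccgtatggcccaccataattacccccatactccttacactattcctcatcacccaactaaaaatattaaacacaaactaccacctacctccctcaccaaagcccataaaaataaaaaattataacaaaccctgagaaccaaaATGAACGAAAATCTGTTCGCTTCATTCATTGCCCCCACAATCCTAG
For comparison, MT-ND4L shares 7 of its 297 bases with MT-ND4 and held 1676 counts or more in each library. How a read that lies in both genes was counted is not given in the sources used here, and the part of the overlap in the low count was not tested. The count of MT-ATP8 therefore does not show how much of its RNA the cells held.

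Among the 35 nuclear genes of complex I, 32 were tested, 17 with a log2 fold change above 0, and the median was 0.01. Their summed FPKM was 827 and 742 in NC and 837 and 796 in TCN1. NDUFV1, which binds NADH, stood at 37.9 and 40.5 FPKM in NC and at 37.4 and 42.8 FPKM in TCN1, a log2 fold change of 0.03 ± 0.10 (SE). NDUFS8, of the arm that leads electrons to ubiquinone, had a log2 fold change of -0.13 ± 0.11 (SE). The groups overlapped in both.

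NDUFA1, an X-linked accessory subunit needed to build the membrane arm, had the smallest p of the nuclear members. It stood at 101.7 and 94.9 FPKM in NC and at 129.3 and 115.9 FPKM in TCN1, with separate groups. Its log2 fold change was 0.31 ± 0.11 (SE, 95% interval 0.06 to 0.57), with an edgeR adjusted p of 0.281. Of the exon bases of NDUFA1, 44.5% lie under another annotated gene, and the library kit does not mark strand. The part of this overlap in the level and fold change of NDUFA1 was not tested. NDUFB1, another accessory subunit, stood at 10.4 and 8.04 FPKM in NC and at 11.4 and 11.6 FPKM in TCN1, and NDUFB6 stood at 26.2 and 21.5 FPKM in NC and at 21.97 and 18.8 FPKM in TCN1. Their log2 fold changes were 0.31 ± 0.15 and -0.23 ± 0.14 (SE). The most abundant nuclear complex I genes per length were NDUFS5 and NDUFA8, at 117 to 146 and 106 to 119 FPKM, with overlapping groups and log2 fold changes of -0.05 and -0.07.

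Complex II, which is also an enzyme of the tricarboxylic acid cycle, had 3 tested genes. The membrane anchor SDHC stood at 51.6 and 43.1 FPKM in NC and at 52.2 and 51.9 FPKM in TCN1, and its partner SDHD at 44.3 and 39.9 FPKM in NC and at 45.9 and 40.5 FPKM in TCN1. The log2 fold changes were 0.13 ± 0.11 and 0.03 ± 0.10 (SE). In SDHC the groups were separate by less than the gap between the NC libraries, and in SDHD they overlapped. The catalytic subunits SDHA and SDHB were under 1 FPKM and are described with the low members.

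All 10 nuclear genes of complex III were tested, 6 with a log2 fold change above 0, and the median was 0.03. CYC1, the cytochrome subunit that reduces cytochrome c, was the most abundant, at 124 and 143 FPKM in NC and at 118 and 142 FPKM in TCN1. In both groups replicate 2 stood above replicate 1, by more than the groups differed. UQCRH, the acidic hinge protein, followed at 99.0 and 83.7 FPKM in NC and at 101.1 and 97.6 FPKM in TCN1. UQCRFS1, the Rieske iron-sulfur protein, and the core protein UQCRC1 had log2 fold changes of -0.04 ± 0.09 and 0.04 ± 0.09 (SE).

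The other core protein, UQCRC2, was under 1 FPKM in 3 libraries and higher in 1. Its partner UQCRC1 stood at 26.7 to 28.7 FPKM, and whether the low UQCRC2 values reflect rare RNA was not tested. UQCRC2 had 38 and 421 counts in NC and 37 and 36 in TCN1. In FPKM this is 0.415 and 7.91 in NC and 0.486 and 0.532 in TCN1. A single library, NC replicate 2, thus stood far above the other 3, and only through it did the gene reach a mean of at least 1 FPKM. The log2 fold change of -3.00 ± 2.00 (SE, edgeR adjusted p = 0.676) became 0.30 without NC replicate 2 (edgeR adjusted p = 0.904) and -3.97 without NC replicate 1 (edgeR adjusted p = 2.43e-49). The small subunit UQCR10 stood at 16.3 and 11.6 FPKM in NC and at 17.8 and 18.1 FPKM in TCN1, a log2 fold change of 0.35 ± 0.19 (SE), again with NC replicate 2 lowest. UQCRHL, a close copy of UQCRH whose reads cannot be fully told from it, was at 1.75 and 0.989 FPKM in NC and at 1.88 and 1.93 FPKM in TCN1, and UQCRB had a log2 fold change of 0.20 ± 0.15 (SE).

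In complex IV, 13 of 14 nuclear genes were tested, 11 had a log2 fold change above 0, and the median of 0.10 was the highest of the nuclear complexes. That median was -0.01 without NC replicate 2. Summed FPKM was 584 and 513 in NC and 593 and 577 in TCN1, so NC replicate 2 was again the low library. COX4I1, the regulatory subunit that wraps the mitochondrially encoded core, stood at 89.3 and 81.3 FPKM in NC and at 87.8 and 83.1 FPKM in TCN1, with a log2 fold change of -0.002 (95% interval -0.19 to 0.19). COX5A stood at 116 and 103 FPKM in NC and at 118 and 113 FPKM in TCN1. In both genes the groups overlapped. The small subunits COX6C and COX7C had log2 fold changes of 0.16 ± 0.11 and 0.18 ± 0.12 (SE).

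Several complex IV subunits exist as tissue isoforms, and where both forms were among the rows the isoform of general use was the more abundant per length. COX7A2 was at 44.2 to 50.3 FPKM while its muscle isoform COX7A1 was at 1.16 to 2.05 FPKM. COX6A1 stood at 5.73 to 11.3 FPKM and COX8A at 47.0 to 68.0 FPKM, whereas COX4I2, COX6A2 and COX8C were not among the rows and were not analysed here. COX6B1 stood at 52.7 and 49.5 FPKM in NC and at 58.9 and 57.0 FPKM in TCN1, with separate groups and a log2 fold change of 0.18 ± 0.10 (SE). Its testis isoform COX6B2 stood at 0.552 and 0.881 FPKM in NC and at 1.17 and 1.31 FPKM in TCN1, also separate, with a log2 fold change of 0.82 ± 0.30 (SE, edgeR adjusted p = 0.285). This was the largest log2 fold change above 0 of all tested subunits, at 38 to 72 counts per library. In COX6B2, 30.9% of the exon bases lie under another annotated gene, and the part of this overlap in its values was not tested.

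In complex V, 17 of 18 nuclear genes were tested, 9 had a log2 fold change above 0, and the median was 0.03. Summed FPKM was 1096 and 1028 in NC and 1085 and 1030 in TCN1, so the replicates differed by more than the groups. ATP5F1B, the catalytic beta subunit and the most abundant nuclear member per length, stood at 517 and 519 FPKM in NC and at 507 and 504 FPKM in TCN1. The TCN1 libraries lay just below the NC libraries, and the log2 fold change of -0.04 ± 0.08 (SE) had a 95% interval from -0.21 to 0.14. The alpha subunit ATP5F1A and the rotor shaft subunit ATP5F1C had log2 fold changes of -0.03 ± 0.08 and -0.01 ± 0.10 (SE). The smallest p-values among the genes of at least 1 FPKM belonged to ATP5PD of the peripheral stalk, ATP5MC2 of the proton-driven ring and ATP5F1E of the rotor, with log2 fold changes of 0.24 ± 0.16, 0.11 ± 0.10 and 0.13 ± 0.13 (SE).

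**Figure D3:**
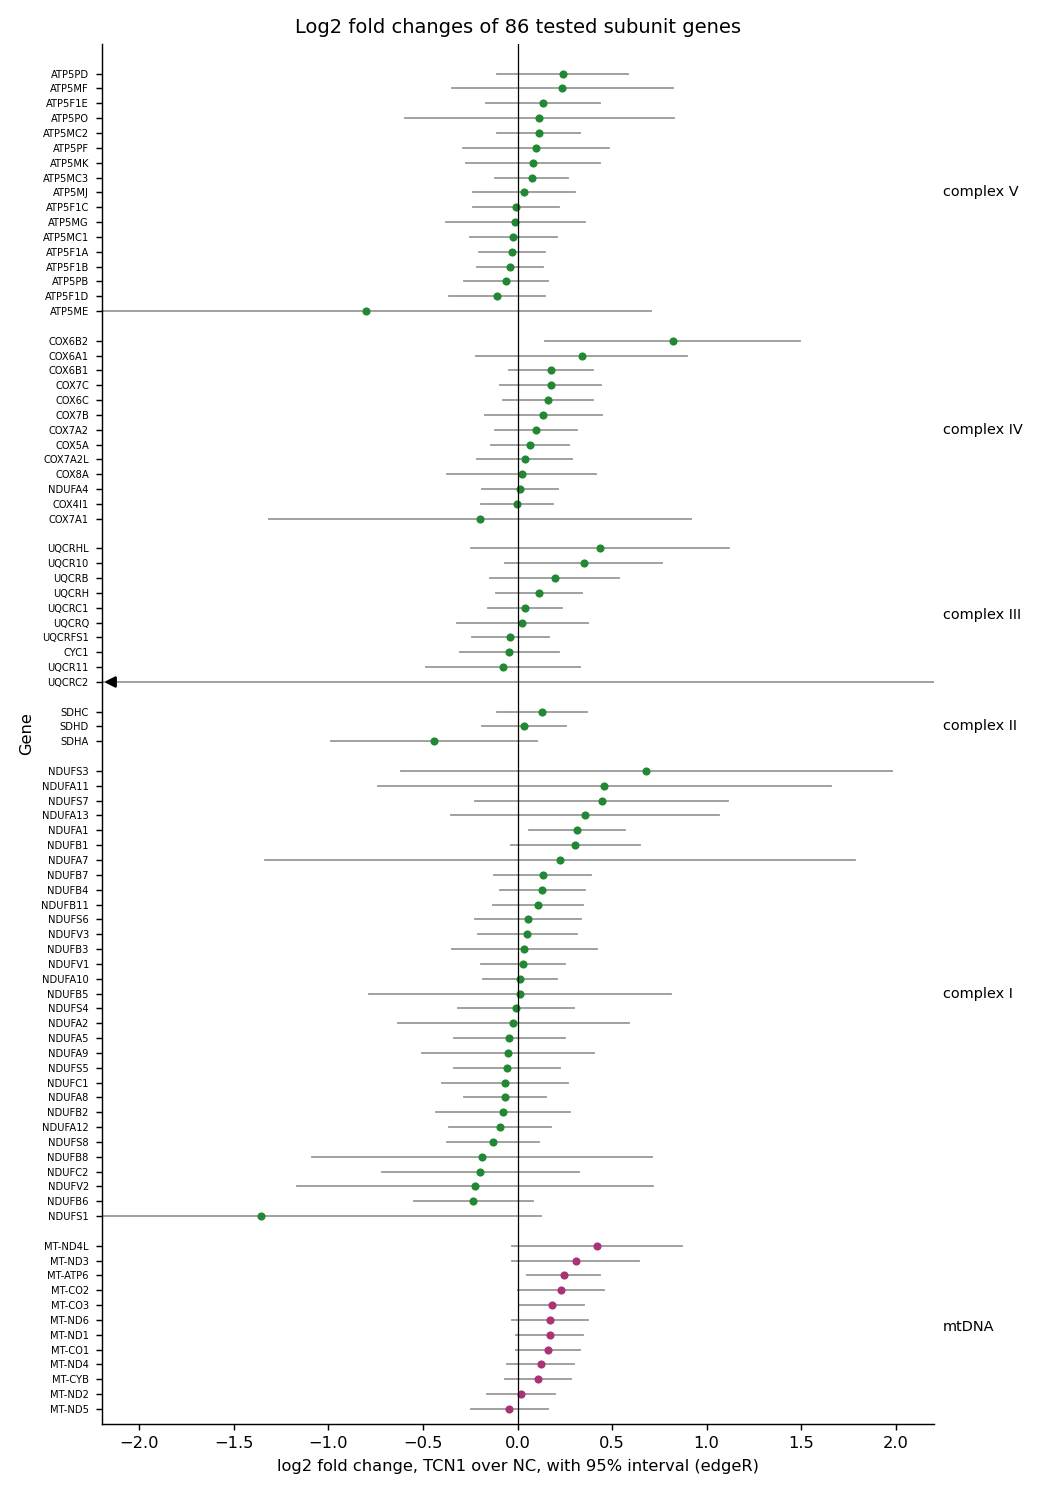
Log2 fold change of TCN1 over NC for 86 of the 87 tested subunit genes, by genome and complex, with the 95% interval from edgeR as a line. Most mitochondrially encoded genes (11 of 12) and 44 of the 74 nuclear genes drawn lie right of 0, and the arrow marks UQCRC2 at -3.00, beyond the axis.

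Of the 94 subunit genes, 16 had a mean under 1 FPKM over the 4 libraries, all nuclear. They were NDUFA3, NDUFA6, NDUFA7, NDUFA11, NDUFB8, NDUFB9, NDUFS1, NDUFS3, NDUFS7 and NDUFV2 of complex I, SDHA and SDHB of complex II, COX5B and COX6B2 of complex IV, and ATP5ME and ATP5MGL of complex V. The noncoding and readthrough rows were also under 1 FPKM, at 4 counts or fewer per library. Just inside the limit lay COX6B2 with a mean of 0.978 FPKM and just outside it NDUFA13 with 1.01 FPKM. The test could be run on 10 of the 16, and it called none of them.

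Among these low genes are catalytic subunits that a working complex needs, beside partners of the same complex at far higher levels. SDHA, the flavin subunit that oxidises succinate, stood at 0.529 and 0.565 FPKM in NC and at 0.416 and 0.389 FPKM in TCN1, and SDHB, which carries the iron-sulfur clusters, held 3 to 10 counts per library, while SDHC and SDHD had means of 49.7 and 42.7 FPKM. The SDHA pseudogene SDHAP4 had counts of 811 and 451 in NC and of 818 and 549 in TCN1, more than SDHA itself with 92, 57, 60 and 50 counts. COX5B, a zinc-binding subunit of complex IV, held 1 count or none per library, beside COX5A with a mean of 113 FPKM. NDUFS3, a core subunit of complex I, held 4 to 13 counts, and NDUFS7 held 23 to 46.

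Several low values also scattered between libraries. NDUFS1, the largest iron-sulfur core subunit of complex I, had counts of 295 and 52 in NC and of 81 and 41 in TCN1, so that NC replicate 1 alone was high. Its log2 fold change of -1.36 ± 0.59 (SE, edgeR adjusted p = 0.428) was -0.23 without NC replicate 1 (edgeR adjusted p = 0.906) and -1.94 without NC replicate 2 (edgeR adjusted p = 1.85e-09). SDHA was lower in both TCN1 libraries, with a log2 fold change of -0.44 ± 0.24 (SE, edgeR adjusted p = 0.489). The other tested low members, NDUFA7, NDUFA11, NDUFB8, NDUFS3, NDUFS7, NDUFV2 and ATP5ME, had log2 fold changes from -0.80 (ATP5ME) to 0.68 (NDUFS3), with standard errors from 0.30 to 0.70.

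Low level went with overlap between annotated genes. In GENCODE 29, the median share of exon bases that lie under another gene was 16.6% for the 16 low genes and 0.0275% for the 65 nuclear subunit genes of at least 1 FPKM, and 10 of the 16 had over 10% against 22 of the 65. The low genes SDHA, SDHB, COX5B and ATP5MGL had no such bases. The library kit does not mark strand, how reads in overlapping genes or with several matches were counted is not given in the sources used here, and the part of either in the low values was not tested. The values under 1 FPKM therefore do not show that these RNAs were rare in the cells.

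**Figure D4:**
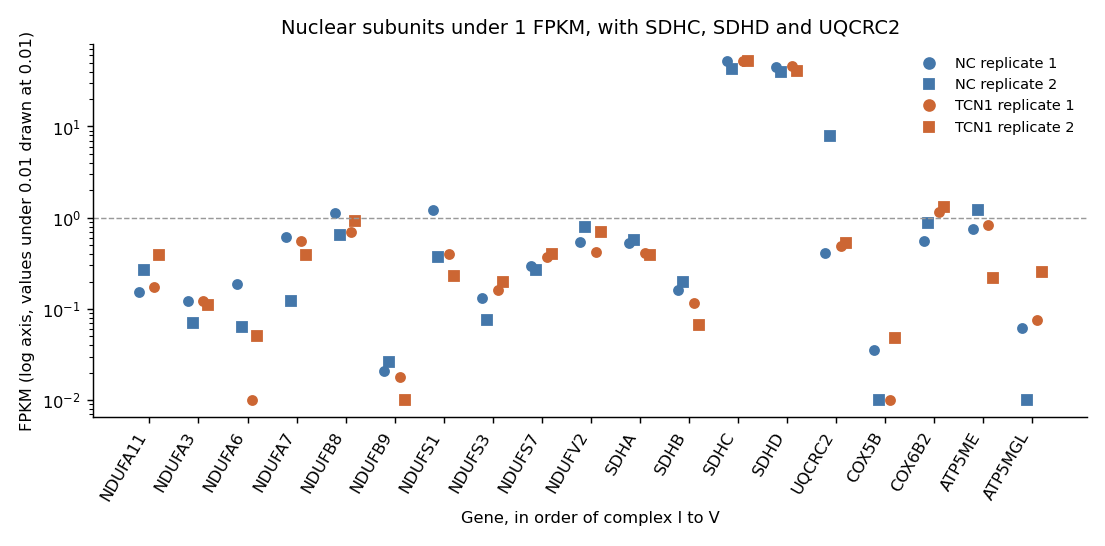
FPKM (log axis, values under 0.01 drawn at 0.01) of the 16 nuclear subunit genes with a mean under 1 FPKM, with SDHC, SDHD and UQCRC2 for comparison, each point 1 library. SDHA and SDHB lie far below their partners SDHC and SDHD, and UQCRC2 lies high in NC replicate 2 only.

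The replicate libraries differed more in the nuclear subunits, by their medians, than the groups did. In NC, 60 of the 75 tested nuclear genes were lower in replicate 2 than in replicate 1, with a median log2 difference of -0.17 in log2 CPM. In TCN1, 49 of the 75 were lower in replicate 2, with a median of -0.07. Over all genes tested the medians were -0.001 and -0.005, with 7579 and 7667 of 15113 lower in replicate 2. The nuclear genes with a gene length under 1500 bp had a median of -0.26 in NC (17 of 18 lower), and those of 1500 bp and over had -0.16 (43 of 57), beside -0.06 and 0.002 for all genes of these lengths. The part of these library differences in the nuclear comparison was not tested, but the nuclear median log2 fold change of 0.03 was 0.14 without NC replicate 1 and -0.03 without NC replicate 2.

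The mitochondrially encoded genes had median replicate differences of -0.04 in NC, with 7 of 12 lower in replicate 2, and of -0.05 in TCN1, with 10 of 12 lower. In NC this was nearer to 0 than the nuclear median, and in TCN1 it was close to it. Their median log2 fold change stayed between 0.14 and 0.19 in all 13 alternatives, and no single library decided its sign.

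FPKM compares genes per length, and the deposited lengths shape the order of levels. They ran among the members from 207 bp for MT-ATP8 to 19359 bp for NDUFA10, which stood at 7.70 to 8.27 FPKM with 1747 to 3079 counts. NDUFS5, at 117 to 146 FPKM, held fewer counts than NDUFA10 in each library and has a deposited length of 548 bp. The length of a gene is the same in all libraries and so is not a factor in computing its fold change, although fold changes did differ with length over all genes, as given above.

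Other genes of the pathway were taken from lists of assembly factors, carriers and regulators. The test called 0 of the 105 listed genes tested, against 0.496% of all genes, and 76 of the 105 had log2 fold changes under 0, against 7505 of all 15113. The 52 tested assembly factors, which insert cofactors and join subunits, had a median of -0.08 with 16 above 0 and 36 below. Of the subunits they serve, 11 of 12 tested mitochondrially encoded and 45 of 75 tested nuclear genes were above 0. The nuclear subunit median of 0.03 was -0.03 without NC replicate 2, and the part of gene length in this contrast was not tested. For complex I, 15 of 18 factors were below 0, with ECSIT and NDUFAF4 at -0.27 ± 0.12 and -0.33 ± 0.15 (SE). For complex II, SDHAF4 and SDHAF3 were at 0.59 ± 0.32 and -0.38 ± 0.22 (SE), and for complex III, BCS1L, which inserts the Rieske protein, and UQCC2 were at -0.31 ± 0.12 and -0.22 ± 0.14 (SE).

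Complex IV had 20 tested assembly factors, 12 of them below 0. COA7 stood at 10.1 and 9.67 FPKM in NC and at 7.17 and 7.14 FPKM in TCN1, with separate groups and a log2 fold change of -0.47 ± 0.11 (SE, edgeR adjusted p = 0.117). COA4 had a log2 fold change of -0.38 ± 0.11 (SE, edgeR adjusted p = 0.195). For complex V, TMEM70 stood at 11.9 and 12.6 FPKM in NC and at 9.56 and 8.93 FPKM in TCN1, a log2 fold change of -0.40 ± 0.12 (SE, edgeR adjusted p = 0.195), and ATPAF1 was at -0.11 ± 0.11 (SE). In coenzyme Q synthesis 6 of 12 genes were below 0, with PDSS1 and COQ3 at -0.55 ± 0.15 and -0.47 ± 0.17 (SE, edgeR adjusted p = 0.167 and 0.287).

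The genes listed for mitochondrial transcription and mRNA stability, which include the RNA-degrading PNPT1, mostly had log2 fold changes under 0. Of 14 tested, 13 were below 0, the median was -0.19, and the groups did not overlap, with TCN1 lower, in 8, against 21.0% of all genes tested. PNPT1, an RNA-degrading and RNA-importing enzyme of mitochondria, stood at 12.7 and 11.7 FPKM in NC and at 8.71 and 7.90 FPKM in TCN1, a log2 fold change of -0.55 ± 0.11 (SE, edgeR adjusted p = 0.0678). FASTKD2, an RNA-binding protein of the mitochondrial matrix, was at -0.34 ± 0.12 (SE). The mitochondrial transcription factor TFAM and the polymerase POLRMT, named after their values were seen, were at -0.21 ± 0.11 and -0.13 ± 0.15 (SE).

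Among the 8 nuclear regulators, 5 were below 0. PPRC1, a coactivator of nuclear genes for mitochondrial proteins, stood at 13.9 and 15.5 FPKM in NC and at 9.25 and 10.8 FPKM in TCN1, with separate groups and a log2 fold change of -0.56 ± 0.12 (SE, edgeR adjusted p = 0.0845). GABPB1, a subunit of the ETS-family factor GABP, was at -0.42 ± 0.13 (SE). DESeq2, which called 111 genes higher and 115 lower of 15113, gave PNPT1 and PPRC1 an adjusted p of 0.0132 each. Over 13 alternatives their log2 fold changes ran from -0.62 to -0.50 and from -0.69 to -0.44. Adjusted p-values ran from 4.6e-08 to 0.189 for PNPT1 and from 5.29e-10 to 0.205 for PPRC1. The lowest came from the fit with no filter on low counts or with the replicate block. Those fits called 200 and 1216 genes higher and 275 and 1655 lower over all genes.

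In the tricarboxylic acid cycle, which supplies the electrons, 12 of 14 genes were below 0 and the median was -0.07. IDH2 stood at 8.55 and 8.98 FPKM in NC and at 10.5 and 11.4 FPKM in TCN1, a log2 fold change of 0.32 ± 0.13 (SE, edgeR adjusted p = 0.333), and FH was at -0.19 ± 0.09 (SE). Of the carriers and subunits outside the naming rule, 5 of 7 were tested and 4 were below 0. Cytochrome c itself, CYCS, stood at 62.3 and 53.6 FPKM in NC and at 52.5 and 48.4 FPKM in TCN1, a log2 fold change of -0.20 ± 0.10 (SE), and HIGD2A, which helps to build complex IV, was at 0.28 ± 0.13 (SE). The mitochondrial ribosomal RNAs were not among the rows and were not analysed here.

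**Figure D5:**
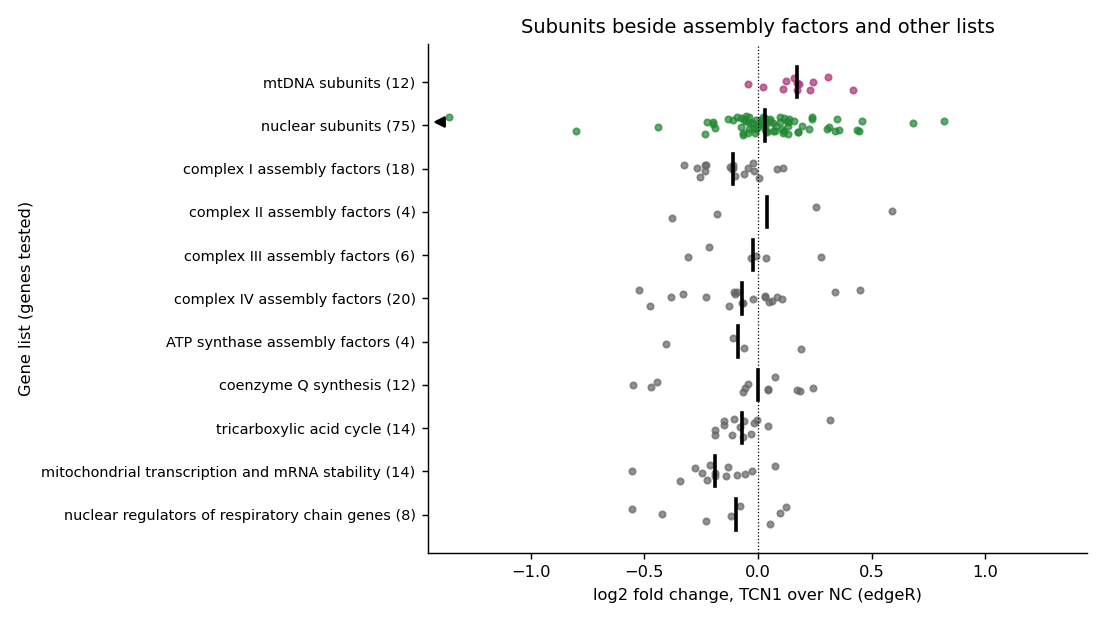
Log2 fold changes (TCN1 over NC, edgeR) of the tested subunits by genome and of the genes of 9 pathway lists, each point 1 gene, with the median as a bar and the number tested in brackets. The mitochondrially encoded subunits have their median at 0.17 and the nuclear subunits at 0.03, while the transcription and mRNA stability list has its median at -0.19; the arrow marks UQCRC2 at -3.00.

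Nuclear respiratory chain genes are known for promoters with sites for NRF1, for ETS-family factors such as GABP and for YY1, and the RNA of these factors was measured as well: log2 fold changes were -0.23 ± 0.14 for NRF1, -0.08 ± 0.13 for GABPA and -0.12 ± 0.08 for YY1 (SE). Windows from 250 bases before to 50 bases after the start were given in RefSeq (GRCh38.p14) for 64 of the 81 nuclear subunit genes, 77 windows in all. The letters GCATGCGC (NRF1), on either strand, were in 19.5% of these windows and 3.74% of the windows of all protein-coding genes. The palindromic NRF1 form of 10 letters, searched first, was in 5.20% and 1.50%, so the NRF1 share depends on the form searched. For CCGGAAG (ETS) the shares were 28.6% and 12.8%, and for AAGATGGC (YY1) 16.9% and 3.53%. For each motif, the most abundant member with it in the 100 bases before the RefSeq start is shown, with the strand of the gene. Capitals mark only that motif, and the ATP5PF stretch also holds the ETS letters in lower case. The GENCODE 29 spans of these genes begin further upstream, so the marked motifs lie inside those spans.
ATP5F1C, NRF1 motif, chr10:7788077-7788176, plus strand: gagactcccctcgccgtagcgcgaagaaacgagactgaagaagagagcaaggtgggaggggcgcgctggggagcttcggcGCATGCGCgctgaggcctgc
NDUFA1, ETS motif on the opposite strand, chrX:119871732-119871831, plus strand: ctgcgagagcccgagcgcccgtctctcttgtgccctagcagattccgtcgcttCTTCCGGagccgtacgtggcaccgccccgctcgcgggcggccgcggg
ATP5PF, YY1 motif, chr21:25735055-25735154, minus strand: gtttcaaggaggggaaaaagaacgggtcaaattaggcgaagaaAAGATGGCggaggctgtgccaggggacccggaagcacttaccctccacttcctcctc
The 33 tested genes with any of the motifs had a median log2 fold change of 0.04, with 20 above 0, and the 27 with none had 0.03, with 16 above 0. With the longer NRF1 form the medians of 30 genes with and 30 without a motif were 0.04 and 0.03. A match is a run of letters and not a measured site, and its absence says nothing of the factor.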

How the data were processed

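RNA of 4 HaCaT libraries, 2 NC and 2 TCN1, was compared, with groups and replicate numbers taken from the sample titles. The submitters' processing notes name HISAT2 (an aligner), HTSeq 0.13.5 (a read counter) and the build GRCh38. Not given in the sources used here are the version of HISAT2, the gene annotation and how strand and multiple matches were handled. Per the file headers, the deposited values are raw counts and FPKM, for 29209 genes. The deposited FPKM equals the count divided by a whole gene length and the library total in 100% of 94850 values above 0 (tolerance 0.001 bp). The counts summed to 19973550 and 11593377 for NC and to 16586500 and 14756073 for TCN1.

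Counts were tested with edgeR 4.0.16 in R 4.3.3 (TMM factors, filterByExpr with a minimum count of 10, robust quasi-likelihood fit, all 4 libraries, group only), which kept 15113 genes. Benjamini-Hochberg adjustment ran over all of them, with a threshold of 0.05. The scripts were tested on simulated data. Alternatives were DESeq2 1.42.0, its size factors in edgeR, limma 3.58.1 on log2(FPKM + 0.5) for genes averaging 1 FPKM or more (pseudocounts 0.1 and 1 as well), other filters, totals without the mitochondrial genome, a replicate block and each library left out.

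MT-ATP6 and MT-ATP8 were kept, although their symbols end like those of pseudogenes, and 31 pseudogene rows were left out. Coordinates and exon overlaps come from GENCODE 29. The promoter motifs were chosen with the fold changes known, and 2 forms of the NRF1 motif were searched: a palindrome of 10 letters first, then its core of 8 letters, adopted after the values of the first had been seen and for reasons of format, not of biology. Both results are given, and neither is a test. The genes named are all mitochondrially encoded members, the catalytic or core subunits, the 2 most abundant genes and the 4 with the smallest p of each nuclear complex, the tissue isoforms, all members under 1 FPKM, and the 2 genes with the smallest p of each list; NDUFA10, NDUFA13, NRF1, GABPA and YY1 are named beside them for their length, level or motif, and TFAM and POLRMT were named after their values were seen. Values of 1 core subunit are not reported here. The members and lists were chosen with earlier results of these data known. The labels name no molecular identifiers, so reads may not be independent molecules.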

Additional observations from a re-analysis of the deposited data

How the results depend on the processing

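Over all genes, edgeR called 43 higher and 32 lower, and the counts were 111 and 115 with DESeq2, 1 and 0 with limma, 200 and 275 with no filter on low counts, and 104 to 188 and 106 to 142 with 1 library left out; with a mean of at least 1 FPKM, 14 were lower. Left-out fits assume that the lone library varies like the other group. Subunits were called with no filter, with 1 library left out and with the replicate block, and in no other setting run. With no filter, which tested 94 subunits among 29209 genes, 1 mitochondrially encoded gene was higher (MT-ND4L, log2 fold change 0.40) and 1 nuclear gene lower (NDUFS1, -1.38). With 1 library left out, 0 to 2 mitochondrially encoded genes were higher (MT-ND3 and MT-ND4L without NC replicate 1) and 0 to 1 nuclear genes lower (UQCRC2 without NC replicate 1, NDUFS1 without NC replicate 2). The replicate numbers could not be shown to pair the libraries: with 2 pairs, the deviations of same-numbered libraries correlated at 0.129. With the replicate block, 1216 of 15113 genes were called higher and 1655 lower. Among them 6 of 12 mitochondrially encoded genes were higher. Of 75 nuclear subunits, 7 were higher and 1 lower (NDUFS1). Median log2 fold changes with 1 library left out ran from -0.027 to 0.136 for all nuclear subunits, from -0.0976 to 0.107 for complex I, from -0.15 to 0.10 for complex II, from 0.0349 to 0.123 for complex III, from -0.0087 to 0.176 for complex IV and from -0.10 to 0.14 for complex V; the complex II median was -0.22 with no filter. The ratio of the mitochondrially encoded share of counts, 1.12, stayed between 1.08 and 1.15. The share of promoter windows with an NRF1 motif was 19.5% with the core and 5.20% with the palindromic form, an alternative chosen after seeing the data. Of 935 values of named genes under alternatives, 892 kept their call and 43 became calls, 28 of them with the block. Counts were too low to test 6 of the 16 subunit genes under 1 FPKM, and MT-ATP8. The part of sequencing depth in these low counts was not tested.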
